A study of Mus musculus with 25 samples.

Results

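Paired immunoglobulin-like and Fc receptors are families of surface proteins on myeloid and other immune cells in which activating and inhibitory members have similar outer domains and opposite signals inside the cell. In all, 10 genes of these families were followed in mouse lung, chosen by gene symbol: Pirb, Sirpa, Cd300a, Cd300lf and Fcgr2b, which encode inhibitory receptors, and Sirpb1a, Fcgr1, Fcgr3, Fcgr4 and Fcer1g, which encode activating receptors or their signalling subunit. Each gene was read from the probe set that carried its symbol alone and had the highest mean over all 25 arrays, and these 10 genes stood among 18193 genes with such a probe set and 12937 genes tested. All 10 passed the filter on dim probe sets. The 10 genes were chosen with earlier results of these data known.

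The arrays measured total lung RNA, 1 array per mouse, of female wild-type C57BL/6J mice of 14 to 17 weeks, in 8 groups. In the groups named radiation+fTyS, radiation+SEW and radiation+FTY (n = 3 each), mice received 25 Gy to the thorax and 0.1 mg/kg of a compound by intraperitoneal injection 2 times a week, and those of the radiation group (n = 3) received 25 Gy alone. The fTyS, SEW and FTY groups (n = 3 each) received a compound alone at the same dose and schedule, and the control group (n = 4) received phosphate-buffered saline, which the label of the radiation group does not mention. The compound fTyS is (S)-FTY-phosphonate, an analog of FTY720 that carries a phosphonate, SEW is SEW-2871, an agonist of the sphingosine 1-phosphate receptor S1pr1 that is not built like sphingosine, and FTY is FTY720 (fingolimod), a prodrug that becomes active on these receptors once a cell has phosphorylated it. The labels do not say how long after irradiation the lungs were taken.

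Inhibitory members carry tyrosine motifs in their tails that recruit the phosphatases SHP-1 and SHP-2 or the lipid phosphatase SHIP, and these oppose the kinases that activating receptors switch on. Activating members signal through adaptor chains with an activation motif: Fcer1g, the common gamma chain, for the activating IgG receptors, and Tyrobp (DAP12) for Sirpb1a and several relatives. In the lung these receptors are known mainly from alveolar and interstitial macrophages, monocytes, neutrophils and B cells. In the myeloid cells among these, the ratio of activating to inhibitory IgG receptors sets how strongly immune complexes stimulate a cell.

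Promoter sequence was available for 9 of the 10 genes, and is shown for Pirb and Cd300lf, which passed the test in the most comparisons, and for Fcgr1, Fcgr3 and Fcgr2b, the IgG receptors that are set side by side in the results. The 250 bases before the annotated start were taken from RefSeq (mouse build GRCm38.p6) and are printed from 5′ to 3′ along the gene's own strand. They span chr7:3720383-3720632 for Pirb, chr11:115133993-115134242 for Cd300lf, chr3:96293970-96294219 for Fcgr1, chr1:171059404-171059653 for the first of the Fcgr3 starts and chr1:170976072-170976321 for Fcgr2b, all on the minus strand. Capitals mark GAGGAA on either strand, a core bound by ETS factors such as PU.1 of myeloid cells, and TTCNNNGAA, a form bound by STAT factors.
Pirb: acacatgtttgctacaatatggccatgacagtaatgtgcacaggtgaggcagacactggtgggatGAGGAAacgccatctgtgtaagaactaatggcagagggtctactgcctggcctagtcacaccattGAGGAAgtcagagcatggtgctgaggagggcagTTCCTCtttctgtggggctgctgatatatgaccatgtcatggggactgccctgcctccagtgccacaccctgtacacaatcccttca
Cd300lf: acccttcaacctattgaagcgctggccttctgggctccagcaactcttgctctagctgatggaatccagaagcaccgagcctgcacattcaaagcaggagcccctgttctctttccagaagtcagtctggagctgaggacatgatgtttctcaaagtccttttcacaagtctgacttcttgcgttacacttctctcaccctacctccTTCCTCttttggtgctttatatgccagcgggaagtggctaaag
Fcgr1: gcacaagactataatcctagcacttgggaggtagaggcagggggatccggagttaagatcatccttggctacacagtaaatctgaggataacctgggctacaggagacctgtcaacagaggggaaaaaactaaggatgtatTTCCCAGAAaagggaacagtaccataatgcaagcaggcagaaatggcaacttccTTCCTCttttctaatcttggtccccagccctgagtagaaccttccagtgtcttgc
Fcgr3: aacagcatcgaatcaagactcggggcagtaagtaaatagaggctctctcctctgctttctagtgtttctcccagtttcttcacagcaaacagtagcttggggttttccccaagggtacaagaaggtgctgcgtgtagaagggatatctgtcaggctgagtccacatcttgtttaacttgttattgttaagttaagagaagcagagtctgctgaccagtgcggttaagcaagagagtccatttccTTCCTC
Fcgr2b: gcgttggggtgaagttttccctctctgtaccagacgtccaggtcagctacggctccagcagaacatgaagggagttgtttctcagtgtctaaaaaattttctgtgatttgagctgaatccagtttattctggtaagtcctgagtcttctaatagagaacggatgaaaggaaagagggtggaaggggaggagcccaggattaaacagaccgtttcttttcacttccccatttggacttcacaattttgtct

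The letters GAGGAA stood in the 250 bases of 6 of the 9 genes (Pirb, Cd300a, Cd300lf, Fcgr1, Fcgr3 and Fcgr4), against 23.3% of 32851 mouse promoters of the same length. Pirb had 3 matches, which began 185, 120 and 87 bases before its start, and Cd300lf had 1, at 43 bases. TTCNNNGAA was found for Fcgr1, 109 bases before the start, and for Sirpb1a at 161 bases, against 7.02% of all promoters. Neither string was present in the windows of Fcgr2b and Fcer1g. These matches describe letters and do not show binding.

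Signals were linear intensities, and the array medians lay between 118.33 and 129.58, so log2(signal + 16) values were compared without further scaling. The 10 marker genes of lung epithelium and endothelium were bright in all groups (mean log2 level 12.52 ± 0.02 in radiation lungs and 12.48 ± 0.06 in control lungs, SD), and none of them passed the test in radiation versus control. Skeletal muscle genes differed widely between lungs of the same group: their mean ran from 6.82 to 9.87 in radiation lungs and from 6.84 to 12.13 in control lungs. In these bulk samples, fewer cells of a type and less RNA per cell cannot be told apart.

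Most of the receptor genes were higher after radiation alone. Of the 10, 9 were called higher in radiation lungs than in control lungs (limma on all genes, Benjamini-Hochberg adjusted p of at most 0.05), against 2.29% of all genes tested. All 5 inhibitory members and 4 of the 5 activating members were among them, and Fcgr4 was not called. For all 10 genes the groups did not overlap, with every radiation array above every control array, which held for 6.25% of all genes. Since the genes were chosen with earlier results of these data known, these shares describe the set and are no independent test of it. The median log2 fold change was 1.08 over the inhibitory and 1.07 over the activating members, against -0.01 over all genes tested.

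Among the inhibitory members, Pirb, a receptor for MHC class I on myeloid and B cells, had signals of 1029, 639.5 and 452 in radiation lungs, against 195, 146, 187 and 284 in control lungs. The lowest radiation array was well above the highest control array, and the log2 fold change was 1.68 ± 0.21 (SE), or 3.21-fold, with limma adjusted p = 0.000219. Cd300lf, whose product binds lipids such as ceramide and phosphatidylserine, read 1232, 1019 and 686 in radiation lungs and 285, 218, 313 and 383 in control lungs. This was again a clear separation, with a log2 fold change of 1.64 ± 0.24 (limma adjusted p = 0.000537). Cd300a, a receptor for aminophospholipids of dying cells, gave 641, 502 and 303 in radiation lungs and 205, 189.9, 176 and 281 in control lungs. Its lowest radiation value lay just above its highest control value, and the log2 fold change was 1.08 ± 0.20 (limma adjusted p = 0.00304). Fcgr2b, the inhibitory low-affinity IgG receptor, read 1338, 889 and 831 in radiation lungs and 695, 539, 553 and 791 in control lungs, where 1 radiation array stood far above the others. The log2 fold change was 0.63 ± 0.14 (limma adjusted p = 0.0104). Sirpa, the receptor for CD47 that restrains phagocytosis, had the smallest log2 fold change of the 10, with signals of 1779.9, 1692 and 1619 in radiation lungs and 1339, 1219, 1391 and 1427 in control lungs. The arrays of each group were close to each other, and the log2 fold change of 0.33 ± 0.08 was called (limma adjusted p = 0.0162).

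Among the activating members, Sirpb1a, a relative of Sirpa that signals through Tyrobp, had the largest log2 fold change of the 10. It had signals of 1055, 677 and 414 in radiation lungs, against 157, 107, 108 and 248 in control lungs. Both groups were spread widely but did not overlap, and the log2 fold change was 2.07 ± 0.32, or 4.2-fold (limma adjusted p = 0.000819). Fcer1g, the gamma chain, read 2707, 2113 and 1525 in radiation lungs and 1083, 807, 866 and 1192 in control lungs, a log2 fold change of 1.07 ± 0.16 (limma adjusted p = 0.000819). Every radiation array was again the higher. Fcgr3, the activating low-affinity IgG receptor, gave 2181, 1529.8 and 1199 in radiation lungs and 829, 634, 521 and 985 in control lungs, with a log2 fold change of 1.12 ± 0.18 (limma adjusted p = 0.00126). Fcgr1, the high-affinity IgG receptor of monocytes and macrophages, read 355, 284 and 254 in radiation lungs and 199, 168, 181 and 219 in control lungs. The groups lay closer here, and the log2 fold change of 0.59 ± 0.12 was called (limma adjusted p = 0.00549). Fcgr4, an activating IgG receptor of monocytes and neutrophils, gave 479, 403 and 240.4 in radiation lungs and 200.5, 126, 169 and 237 in control lungs. The lowest radiation value was barely above the highest control value, and the log2 fold change of 0.95 ± 0.30 did not pass the test (limma adjusted p = 0.085).

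**Figure D1:**
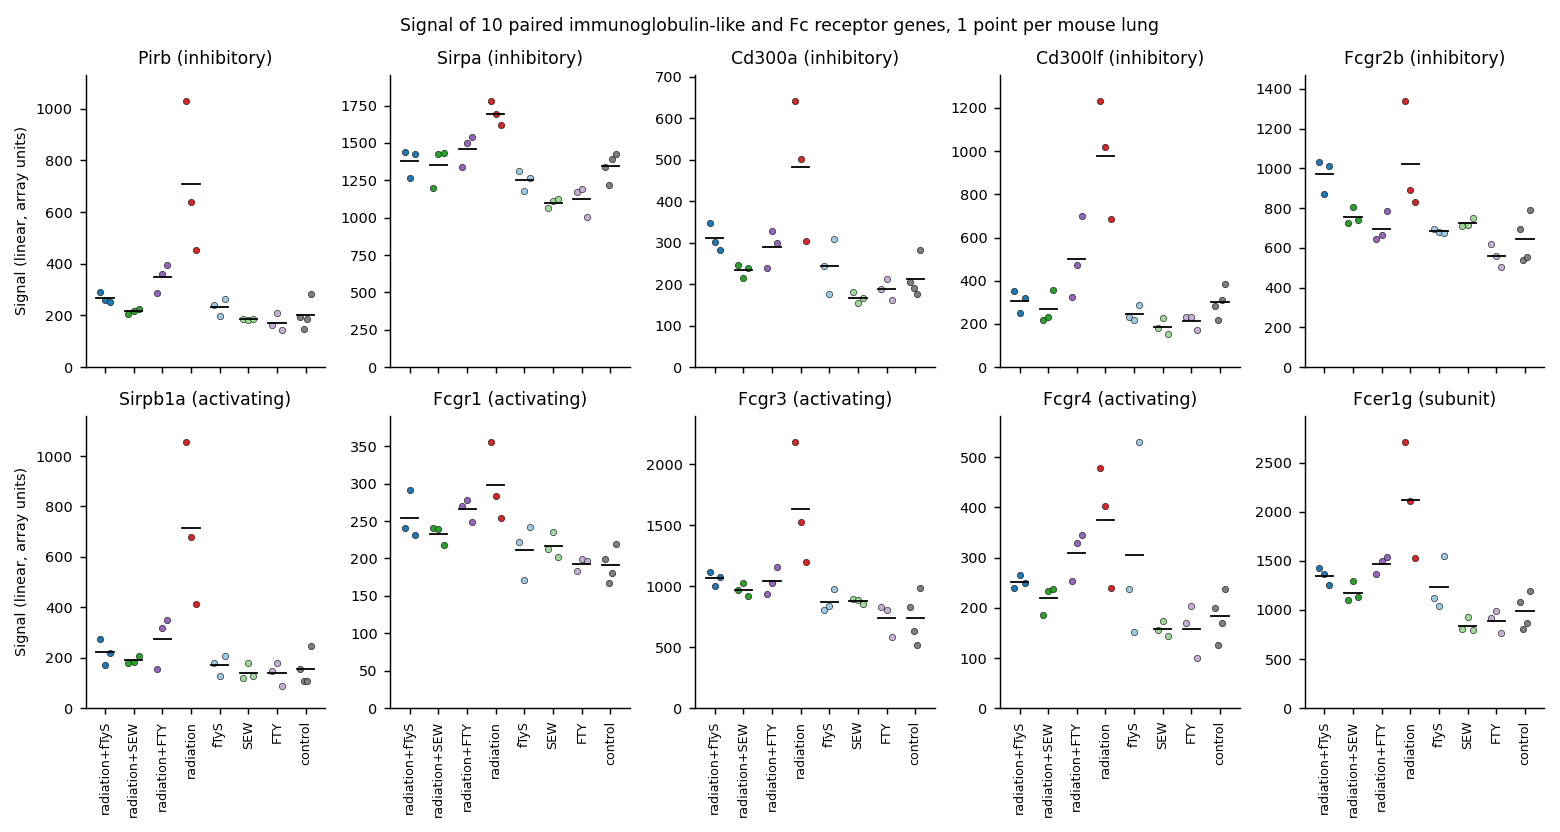
Signal of each receptor gene (linear array units, each axis from 0) in the 8 groups, with 1 point per mouse lung and a bar at the group mean. In every panel the 3 radiation arrays lie above the 4 control arrays, and in the Fcgr2b panel the radiation+fTyS arrays lie within the range of the radiation arrays.

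The same mouse gave the highest signal of the radiation group for all 10 genes, the one labelled replicate 1, and the mouse labelled replicate 3 gave the lowest for all 10. In the control group the mouse labelled replicate 4 was highest for all 10 genes. Without radiation replicate 1, 6 of the 10 were called in radiation versus control, and Sirpa, Fcgr1 and Fcgr2b were lost, with log2 fold changes of 0.46 for Fcgr1 and 0.42 for Fcgr2b. Sirpa was also lost without control replicate 2 (0.29) and without radiation replicate 2. When only the radiation and control arrays entered the fit, Cd300lf alone was called (limma adjusted p = 0.0428), and the other 8 had adjusted p-values from 0.0518 for Pirb and Sirpb1a to 0.184 for Fcgr2b. The share of all genes called in these other fits is not given here.

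Further probe sets bear on 4 of the genes. Of the 5 probe sets with only the symbol Fcgr2b, 4 passed the filter, and all 4 rose in radiation lungs by 0.44 to 0.87 on the log2 scale. The fifth was below the filter and read 0.03 ± 0.22. Sirpa had 2 further probe sets, with log2 fold changes of 0.50 ± 0.16 and 0.00 ± 0.12, neither of them called, so its increase rests on the brightest of 3. The second probe set of Fcgr1 was dim and gave 0.15 ± 0.12, and that of Cd300a was below the filter at 0.14 ± 0.14. When the probe sets of each gene were averaged, 8 members were called and Sirpa was lost.

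Pirb and Sirpb1a each lie beside near-identical relatives (Pira genes, and Sirpb1b and Sirpb1c), whose RNA may bind to the same probes. A probe set annotated to Sirpb1a, Sirpb1b and Sirpb1c together gave a log2 fold change of 2.20 ± 0.31 in radiation versus control (limma adjusted p = 0.000183 over all probe sets). The 3 probe sets annotated to Pirb with Pira genes gave 1.17 ± 0.19, 1.87 ± 0.27 and 1.04 ± 0.17, the last of them below the filter. In these shared probe sets the activating Pira genes and the inhibitory Pirb cannot be told apart.

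With a compound beside radiation, most receptor signals were lower than with radiation alone, but Fcgr2b with fTyS was near its radiation level (-0.04 ± 0.15). Not every gene passed the test with every compound. None of the 10 differed by limma between compounds in the direct tests reported further on. In radiation+fTyS versus radiation, 3 of the 10 were lower (Pirb, Sirpb1a and Cd300lf), against 0.441% of all genes, and 6 did not overlap, against 8.17%. In radiation+SEW versus radiation, 6 were lower (Pirb, Sirpa, Sirpb1a, Cd300a, Cd300lf and Fcer1g), against 1.11% of all genes, and all 10 did not overlap, against 9.38%. In radiation+FTY versus radiation, 3 were lower (Pirb, Sirpb1a and Cd300lf), against 1.08% of all genes, and 5 did not overlap, against 10.1%. These 3 comparisons share the radiation arrays, so their likeness is not independent. The median log2 fold change of the 10 was -0.56 with fTyS, -0.75 with SEW and -0.56 with FTY, while that of all genes lay between 0.014 and 0.034.

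Pirb had signals of 289.7, 261 and 251 in radiation+fTyS lungs, 207, 217 and 225 in radiation+SEW lungs and 286, 361 and 394 in radiation+FTY lungs, all below the lowest radiation array. Against radiation alone, the log2 fold change of Pirb with fTyS was -1.28 ± 0.22 (2.42-fold lower, limma adjusted p = 0.0111). With SEW it was -1.56 ± 0.22 (2.95-fold lower, limma adjusted p = 0.00288), and with FTY -0.93 ± 0.22 (1.9-fold lower, limma adjusted p = 0.0312). The 3 radiation+SEW arrays were the lowest of the 9. The probe sets shared with Pira genes were lower too, and in a fit of all probe sets all of them were called with SEW. With fTyS only the one below the filter was called (-0.84 ± 0.18, limma adjusted p = 0.0259). With FTY none was called (-0.67 ± 0.20, -0.99 ± 0.29 and -0.47 ± 0.18). In that fit the probe set of Pirb alone with FTY had a limma adjusted p of 0.0526. Sirpb1a had signals of 275, 173 and 219 in radiation+fTyS lungs, 178, 185 and 208 in radiation+SEW lungs and 154, 316 and 350.0 in radiation+FTY lungs, again all below the lowest radiation array. Its log2 fold changes against radiation were -1.54 ± 0.34 with fTyS (limma adjusted p = 0.0379), -1.73 ± 0.34 with SEW (limma adjusted p = 0.0133) and -1.31 ± 0.34 with FTY (limma adjusted p = 0.0438).

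Cd300lf gave 352, 251 and 318 in radiation+fTyS lungs, 217, 234 and 359 in radiation+SEW lungs and 326, 474 and 701 in radiation+FTY lungs. The radiation+fTyS and radiation+SEW arrays were far below the radiation arrays, while the highest radiation+FTY array passed the lowest radiation array. The log2 fold changes were -1.60 ± 0.26 with fTyS (limma adjusted p = 0.0058), -1.79 ± 0.26 with SEW (limma adjusted p = 0.00288) and -0.97 ± 0.26 with FTY (limma adjusted p = 0.0469). Cd300a read 347, 301 and 283 in radiation+fTyS lungs, 245, 216 and 239 in radiation+SEW lungs and 239.7, 328 and 299.9 in radiation+FTY lungs. Only the radiation+SEW arrays were all below the radiation arrays, and only that difference was called (-0.94 ± 0.22, limma adjusted p = 0.0248), while the values with fTyS (-0.55 ± 0.22) and FTY (-0.66 ± 0.22) did not pass.

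Sirpa gave 1439.8, 1268 and 1428 in radiation+fTyS lungs, 1199, 1426 and 1429.6 in radiation+SEW lungs and 1339, 1503 and 1537 in radiation+FTY lungs, all below the radiation arrays. The difference with SEW was called (-0.33 ± 0.08, limma adjusted p = 0.0401), and those with fTyS (-0.30 ± 0.08, limma adjusted p = 0.0952) and FTY (-0.22 ± 0.08, limma adjusted p = 0.128) were not. Fcer1g read 1423, 1370.4 and 1251 in radiation+fTyS lungs, 1099, 1295 and 1134 in radiation+SEW lungs and 1364, 1499.6 and 1536 in radiation+FTY lungs. The radiation+fTyS and radiation+SEW arrays were below the radiation arrays, and the highest radiation+FTY array was just above the lowest of them. The log2 fold change with SEW was -0.80 ± 0.18 (limma adjusted p = 0.0206), while -0.61 ± 0.18 with fTyS and -0.49 ± 0.18 with FTY did not pass.

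None of the 4 IgG receptors was called by limma with any compound, and their unadjusted p was below 0.05 in some of these comparisons. Fcgr3 had 1117, 1004 and 1075 in radiation+fTyS lungs, 966, 1026 and 919 in radiation+SEW lungs and 940.5, 1024 and 1161 in radiation+FTY lungs, every one of them below the radiation arrays. Its log2 fold changes were -0.57 ± 0.20, -0.70 ± 0.20 and -0.61 ± 0.20, with limma adjusted p-values of 0.193 with fTyS, 0.0626 with SEW and 0.0826 with FTY. Fcgr2b read 1032, 869 and 1013 in radiation+fTyS lungs, 726, 806 and 738 in radiation+SEW lungs and 645, 663 and 783 in radiation+FTY lungs. The radiation+fTyS arrays lay within the radiation arrays, and the radiation+SEW and radiation+FTY arrays below them. The log2 fold change with fTyS was -0.04 ± 0.15, with a 95% interval of -0.35 to 0.27, and the 3 further Fcgr2b probe sets above the filter gave 0.02, -0.10 and 0.02. With SEW it was -0.39 ± 0.15 (-0.70 to -0.08) and with FTY -0.51 ± 0.15 (-0.82 to -0.20), with limma adjusted p-values of 0.17 and 0.0588 in that order. Fcgr1 gave 241, 292 and 231 in radiation+fTyS lungs, 240.3, 239 and 218 in radiation+SEW lungs and 270.4, 278 and 249 in radiation+FTY lungs, and its log2 fold changes ran from -0.32 with SEW to -0.14 with FTY. Fcgr4 gave 239, 265 and 250.5 in radiation+fTyS lungs, 185, 233 and 238 in radiation+SEW lungs and 253, 329 and 345 in radiation+FTY lungs, with log2 fold changes from -0.69 with SEW to -0.22 with FTY. For both genes the radiation+SEW arrays stood below the radiation arrays and the radiation+fTyS and radiation+FTY arrays overlapped them.

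**Figure D2:**
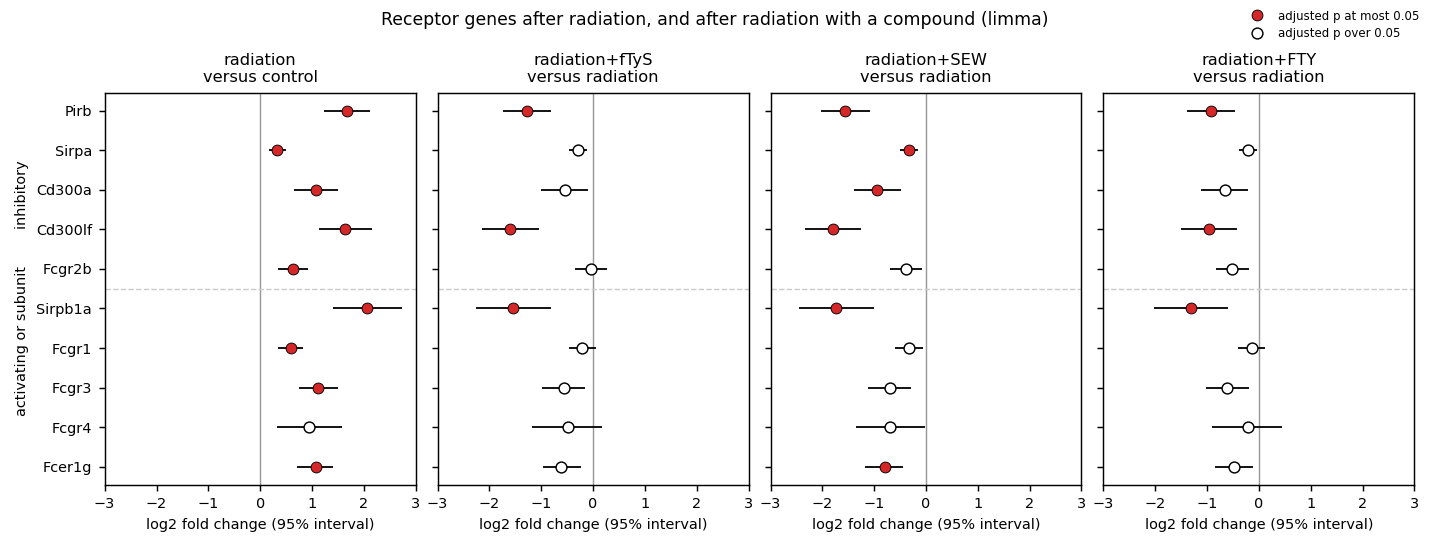
Log2 fold change of each gene with its 95% interval (x axis) in radiation versus control and in radiation with each compound versus radiation, with inhibitory members above the dashed line and activating members or the subunit below it. Red points had an adjusted p of at most 0.05: 9 in the left panel, then 3, 6 and 3.

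These counts depended on single arrays and on the fit. Counts from other fits, here and elsewhere in the results, stand without the share of all genes called in the same fit. Such counts do not show whether genes at large moved alike. Over fits that left out 1 array each, the counts ran from 1 to 5 with fTyS, from 2 to 7 with SEW and from 0 to 6 with FTY. Without radiation replicate 1 they were 1, 2 and 0, and without radiation replicate 3 the count was 5 with fTyS and 6 with FTY. Cd300lf with fTyS and with SEW, and Pirb with SEW, were called whichever array was left out. When only the arrays compared entered the fit, no member was called with fTyS or FTY, and Cd300lf alone with SEW (limma adjusted p = 0.0461). Without the filter on dim probe sets, 1 member was called with FTY, Pirb. The call of Cd300lf with FTY was also lost after median centring, with a pseudocount of 1, with averaged probe sets and with the replicate number as a block. With averaged probe sets Sirpb1a with FTY and Sirpa with SEW were lost too, and Sirpa with SEW was lost under the block as well. The count with FTY was 0 also without radiation replicate 2, radiation+FTY replicate 1 or radiation+FTY replicate 2. It was 1 without 1 of 7 arrays of other groups (fTyS 1, SEW 1 and 3, FTY 1, radiation+fTyS 3, radiation+SEW 1 and 2), which enter only the shared spread. The count with fTyS was 1 also without radiation+fTyS replicate 3, and the count with SEW was 3 without radiation replicate 2, radiation+SEW replicate 1 or radiation+SEW replicate 3.

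Whether the effect of radiation itself differed with a compound was tested as an interaction, (radiation with compound less compound alone) less (radiation less control). With fTyS, 1 of the 10 had a lower response, Pirb (-1.49 ± 0.31, limma adjusted p = 0.0265), against 0.363% of all genes lower. With SEW, 4 had a lower response, against 3.41% of all genes: Pirb (-1.47 ± 0.31, limma adjusted p = 0.00484), Sirpb1a (-1.66 ± 0.47, 0.0243), Cd300lf (-1.17 ± 0.36, 0.0338) and Fcgr3 (-0.99 ± 0.27, 0.0209). With FTY limma called none, against 6.84% of all genes in either direction, and 3 of the 10 had an unadjusted p below 0.05. Leaving out single arrays moved these counts from 0 to 4 with fTyS and from 1 to 8 with SEW. The Pirb interaction with fTyS was lost without control replicate 3, radiation replicate 2 or radiation+fTyS replicate 3, and the count with fTyS was 4 without control replicate 4 or radiation replicate 3 and 2 without radiation+FTY replicate 1 or 3. The count with SEW was 1 without radiation replicate 1, 2 without SEW replicate 2 and 8 without radiation replicate 3, and Pirb was called each time. In fits of only the arrays compared, Pirb with fTyS and Fcgr3 with SEW were not called.

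Given without radiation, the compounds moved few of these genes. In fTyS versus control limma called none of the 10, against 0.178% of all genes in either direction, and none had an unadjusted p below 0.05. Fcgr4 was spread widely there, with 237, 151 and 530.0 in fTyS lungs and 200.5, 126, 169 and 237 in control lungs, where 1 fTyS array stood far above all others and the log2 difference was 0.55 ± 0.30. In SEW versus control, Sirpa was lower, with 1062, 1109 and 1128 in SEW lungs and 1339, 1219, 1391 and 1427 in control lungs (-0.28 ± 0.08, limma adjusted p = 0.0204). The groups did not overlap for Sirpa, but 1 of 10 members is no more than the 10.8% of all genes that were lower, and the call was lost without control replicate 3, without SEW replicate 1, after median centring of the arrays, with Sirpa probe sets averaged and with the replicate number as a block. In FTY versus control limma called none, against 2.73% of all genes in either direction, and 1 had an unadjusted p below 0.05. That was Sirpa, with 1173, 1193 and 1002 in FTY lungs, all below control (-0.26 ± 0.08, limma adjusted p = 0.0802).

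Radiation with a compound was also compared with the compound alone. In radiation+FTY versus FTY, 5 of the 10 were higher, against 9.13% of all genes, and 9 did not overlap, against 20.7%. Pirb read 286, 361 and 394 in radiation+FTY lungs and 162, 209 and 142 in FTY lungs, and the log2 fold change was 0.96 ± 0.22 (limma adjusted p = 0.00906). Cd300lf gave 326, 474 and 701 in radiation+FTY lungs and 230.2, 233 and 171 in FTY lungs, a log2 fold change of 1.13 ± 0.26 (limma adjusted p = 0.00843). The radiation+FTY arrays were the higher throughout for both. The others were Fcer1g (0.72 ± 0.18), Fcgr1 (0.43 ± 0.13) and Sirpa (0.38 ± 0.08). The Fcgr1 call was lost without any of 5 of the 6 arrays compared, and Fcgr1 and Sirpa were lost when probe sets were averaged. The probe sets of Sirpa disagreed in this comparison: beside the brightest one, another that passed the filter was lower in radiation+FTY lungs (-0.42 ± 0.13, limma adjusted p = 0.0492 over all probe sets), and the remaining one read 0.17 ± 0.17. The second Fcgr1 probe set gave 0.04 ± 0.12. In a fit of only the radiation+FTY and FTY arrays, Sirpa and Cd300lf were not called. In radiation+SEW versus SEW, 1 was higher, Sirpa (0.29 ± 0.08, limma adjusted p = 0.0203), which is no more than the 13.8% of all genes, and 7 did not overlap, against 27.8%. Sirpa read 1199, 1426 and 1429.6 in radiation+SEW lungs and 1062, 1109 and 1128 in SEW lungs, and its call was lost without SEW replicate 1, radiation+SEW replicate 2 or radiation+SEW replicate 3, after median centring and with averaged probe sets, while 2 genes were called without fTyS replicate 3, radiation replicate 1 or radiation replicate 3. The other Sirpa probe sets gave -0.20 ± 0.13 and 0.09 ± 0.17. In radiation+fTyS versus fTyS limma called none, against 0.456% of all genes in either direction, and 1 had an unadjusted p below 0.05. That was Fcgr2b, with 1032, 869 and 1013 in radiation+fTyS lungs and 695, 681 and 674 in fTyS lungs, without overlap (0.49 ± 0.15, limma adjusted p = 0.138).

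Radiation with a compound was set against control as well. In radiation+FTY versus control, 3 of the 10 were higher, against 4.9% of all genes: Pirb (0.75 ± 0.21, limma adjusted p = 0.0305), Fcgr1 (0.45 ± 0.12, 0.0242) and Fcer1g (0.58 ± 0.16, 0.0338). Fcer1g read 1364, 1499.6 and 1536 in radiation+FTY lungs and 1083, 807, 866 and 1192 in control lungs, without overlap, and the other 2 were apart as well. Leaving out single arrays moved the count from 0 to 6, with 0 without control replicate 2, control replicate 3, radiation+FTY replicate 1 or radiation+FTY replicate 2, 1 without radiation+FTY replicate 3, and 6 without control replicate 4. All 3 calls were lost when only the radiation+FTY and control arrays entered the fit, and that of Fcgr1 also with averaged probe sets. In radiation+SEW versus control limma called none, against 0.232% of all genes in either direction, and 2 had an unadjusted p below 0.05. The log2 differences ran from -0.15 for Cd300lf to 0.42 for Fcgr3. In radiation+fTyS versus control limma called none, against 0% of all genes in either direction, and 5 had an unadjusted p below 0.05. The smallest p among these was that of Fcgr2b, with 1032, 869 and 1013 in radiation+fTyS lungs and 695, 539, 553 and 791 in control lungs, all radiation+fTyS arrays being the higher (0.59 ± 0.14, limma adjusted p = 0.118). With the replicate number as a block, 2 were called in this comparison, Fcgr2b and Fcgr3, and the same 2 were called without control replicate 4.

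The compounds were compared with each other at the same dose and schedule, in 3 pairs with radiation and 3 without. Radiation+fTyS and radiation+FTY set FTY720 against its phosphonate analog. Limma called none of the 10, against 3.95% of all genes in either direction, and 2 had an unadjusted p below 0.05. Fcgr2b was higher with the phosphonate in all arrays, at 1032, 869 and 1013 in radiation+fTyS lungs and 645, 663 and 783 in radiation+FTY lungs, but the log2 difference of 0.47 ± 0.15 (95% interval 0.16 to 0.78) missed the threshold (limma adjusted p = 0.0742). It passed without radiation replicate 1 or radiation+fTyS replicate 2. Cd300lf differed the other way, by -0.62 ± 0.26 (-1.17 to -0.08, limma adjusted p = 0.172), with overlap between the groups.

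In radiation+SEW versus radiation+FTY limma called none, as for 0% of all genes, and 2 of the 10 had an unadjusted p below 0.05. These were Pirb, at -0.63 ± 0.22 (-1.10 to -0.17), with all radiation+SEW arrays below the radiation+FTY arrays, and Cd300lf, at -0.82 ± 0.26 (-1.36 to -0.28). In radiation+fTyS versus radiation+SEW limma called none, as for 0% of all genes, and 1 had an unadjusted p below 0.05. It was Fcgr2b, at 0.35 ± 0.15 (0.04 to 0.66), with all radiation+fTyS arrays above the radiation+SEW arrays. The intervals leave room for differences of about this size in the other members too: their median half-width was 0.43 between groups of 3.

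Without radiation limma called none of the 10 in any pair. The share of all genes called was 1.55% for fTyS versus SEW, 0% for fTyS versus FTY and 0% for SEW versus FTY, in either direction, and 4, 2 and 1 of the 10 had an unadjusted p below 0.05. The difference nearest to the threshold was that of Fcer1g in fTyS versus SEW, with 1125, 1040.4 and 1546 in fTyS lungs and 804, 925 and 792 in SEW lungs, without overlap (0.53 ± 0.18, 95% interval 0.16 to 0.90, limma adjusted p = 0.11).

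Since Fcgr2b and Fcgr3 answer to the same immune complexes with opposite signals, their log2 values were also subtracted within each array and set to 0 at the control mean. Fcgr3 less Fcgr2b was -0.04 ± 0.06 in radiation+fTyS lungs, 0.18 ± 0.05 in radiation+SEW lungs, 0.39 ± 0.04 in radiation+FTY lungs and 0.49 ± 0.13 in radiation lungs, against 0 ± 0.18 in control lungs (SD). The lowest radiation array (0.34) was above the highest control array (0.14), and the radiation+fTyS arrays (-0.09 to 0.03) lay within the control range, which began at -0.26. Fcgr1 less Fcgr2b was -0.21 ± 0.30 in radiation+fTyS lungs, 0.02 ± 0.09 in radiation+SEW lungs, 0.32 ± 0.22 in radiation+FTY lungs and -0.05 ± 0.14 in radiation lungs, against 0 ± 0.11 in control lungs. Fcgr4 less Fcgr2b was -0.14 ± 0.20 in radiation+fTyS lungs, 0.02 ± 0.16 in radiation+SEW lungs, 0.60 ± 0.16 in radiation+FTY lungs and 0.32 ± 0.31 in radiation lungs, against 0 ± 0.15 in control lungs. For these pairs the radiation+FTY mean was the highest of the irradiated groups, and the radiation arrays overlapped the control arrays (0.02 to 0.63 in radiation lungs for Fcgr4 less Fcgr2b, with control arrays up to 0.12). In fTyS, SEW and FTY lungs without radiation, Fcgr3 less Fcgr2b was 0.16 ± 0.17, 0.10 ± 0.07 and 0.20 ± 0.15. In the same order, Fcgr1 less Fcgr2b was 0.03 ± 0.25, -0.02 ± 0.14 and 0.20 ± 0.20, and Fcgr4 less Fcgr2b was 0.45 ± 0.88, -0.36 ± 0.16 and -0.03 ± 0.38. Sirpb1a less Sirpa was 0.49 ± 0.23 in radiation+fTyS lungs, 0.33 ± 0.10 in radiation+SEW lungs, 0.64 ± 0.50 in radiation+FTY lungs and 1.74 ± 0.59 in radiation lungs, against 0 ± 0.46 in control lungs. Here the radiation arrays (1.13 to 2.32) lay above all others, and the compound groups overlapped control, whose arrays reached 0.61. These are differences of log2 values within an array, not of levels, and are given without a test. Fcgr2b was read from its brightest probe set, and the differences depend on that choice. In radiation versus control its probe sets above the filter rose by 0.44 to 0.87, against 1.12 for Fcgr3. In SEW versus control the probe set of Fcgr2b with the largest rise gave 0.52 ± 0.19 and the brightest 0.19 ± 0.14, against 0.28 ± 0.18 for Fcgr3.

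**Figure D3:**
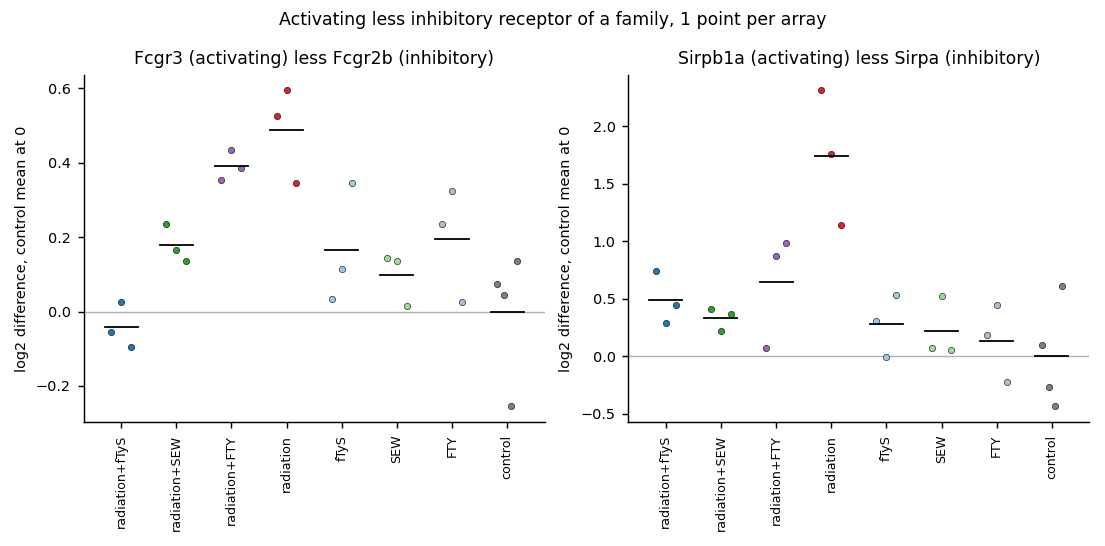
Log2 difference between an activating and an inhibitory receptor within each array, with the control mean at 0, in the 8 groups (1 point per array, bar at the mean). Each gene was read from its brightest probe set, and the values with Fcgr2b depend on that choice. For Fcgr3 less Fcgr2b the radiation arrays lie at 0.34 to 0.60 and the radiation+fTyS arrays at -0.09 to 0.03, and for Sirpb1a less Sirpa the radiation arrays lie at 1.13 to 2.32.

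The signalling partners of the receptors moved in part. Of 31 partners tested, 7 were higher and 1 lower in radiation versus control, with a median log2 fold change of 0.14. The higher ones included Fgr, a Src family kinase of neutrophils and monocytes (1.30 ± 0.22), Tyrobp, the adaptor of Sirpb1a (1.07 ± 0.18), the adaptor Fyb (0.93 ± 0.25), the kinase Syk that binds phosphorylated adaptor chains (0.58 ± 0.16) and Hcst, the adaptor DAP10 (0.49 ± 0.12). The lower one was Pik3r1, a regulatory subunit of PI3-kinase (-0.26 ± 0.05). In radiation+SEW versus radiation 6 were lower and none higher, with a median of -0.14, among them Fgr (-1.41 ± 0.24), Fyb (-1.09 ± 0.27), Tyrobp (-0.82 ± 0.19) and Syk (-0.65 ± 0.17). In radiation+fTyS versus radiation Fgr was lower (-1.17 ± 0.24) and Pik3r1 higher (0.29 ± 0.06), with a median of -0.10, and in radiation+FTY versus radiation limma called none (10 of the 31 had an unadjusted p below 0.05), with a median of -0.08. Inhibitory phosphatases of the list, Ptpn6 (SHP-1), Ptpn11 (SHP-2) and Inpp5d (SHIP), were not among those called in these 4 comparisons.

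Many other paired and immune receptors were higher after radiation too. Of 29 tested, 13 were higher and none lower in radiation versus control, with a median of 0.45 against -0.01 over all genes. They included Igsf6 (1.85 ± 0.25), the activating relatives Cd300lb (1.57 ± 0.21) and Trem1 (1.24 ± 0.21), the inhibitory receptor Pilra (1.43 ± 0.25), Cd244a (1.02 ± 0.19) and Milr1 (1.01 ± 0.17). With fTyS beside radiation 5 were lower than with radiation alone and none higher (median -0.27), including Igsf6 (-1.27 ± 0.27), Trem1 (-1.08 ± 0.22) and Cd300lb (-1.01 ± 0.23). In radiation+SEW versus radiation 10 were lower (median -0.44), including Igsf6 (-1.76 ± 0.27), Cd244a (-1.34 ± 0.21) and Milr1 (-1.10 ± 0.19), and Fcrls was higher (0.88 ± 0.19). In radiation+FTY versus radiation 5 were lower and none higher (median -0.31), including Igsf6 (-1.21 ± 0.27) and Trem1 (-0.94 ± 0.22).

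Some neutrophil markers, and a smaller share of monocyte and interstitial macrophage markers, moved in some comparisons in which receptors were called. Of 7 neutrophil markers tested, 4 were higher in radiation versus control (Csf3r, S100a9, S100a8 and Mmp9), with a median log2 fold change of 2.01, and their summed signal was 16940 to 28500 in radiation lungs and 5130 to 10890 in control lungs. Of these 7 markers, 2 were lower in radiation+fTyS versus radiation (median -1.72), in radiation+SEW versus radiation 4 (median -2.16) and in radiation+FTY versus radiation none by limma, with an unadjusted p below 0.05 for 2 (median -0.77). Retnlg and Ly6g had no probe set with their symbol alone, and Cxcr2, Camp, Mpo and Elane were below the filter. Of 13 markers of monocytes and interstitial macrophages, 4 were higher in radiation versus control (Cd68, Itgam, Ccr2 and Adgre1, median 0.32), and 2 (Itgam and Ccr2) were lower in radiation+SEW versus radiation. Limma called none of the 13 with fTyS or FTY beside radiation, where 3 and 6 had an unadjusted p below 0.05 and the medians were 0.04 and -0.13. Their summed signal was 11920 to 16200 in radiation lungs and 9661 to 12210 in control lungs. The part of these cells in the receptor values was not tested.

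The other marker lists moved less in radiation versus control. Of 9 alveolar macrophage markers 1 was higher (Chil3) and 2 lower (Krt79 and Fabp1), with a median of 0.16, and Marco was below the filter. None of 7 B cell markers was called by limma or had an unadjusted p below 0.05 (median -0.64), and their summed signal varied from 678.1 to 2484 in radiation lungs and from 1845 to 2667 in control lungs. Of 4 NK cell markers 1 was lower (Klra8, median -0.58), and limma called none of 5 platelet markers, of which 1 had an unadjusted p below 0.05 (median 0.08). Of 8 markers of mast cells and basophils 6 were below the filter, among them Fcer1a and Ms4a2, the partners of Fcer1g in the IgE receptor, and neither of the other 2 was called (median -0.01). None of 6 skeletal muscle markers (median -0.37), 2 adipocyte markers (0.11) or 10 markers of lung epithelium and endothelium (0.02) was called by limma or had an unadjusted p below 0.05. B cells carry Fcgr2b as their only IgG receptor, and their 7 markers had a mean log2 level of 8.46 ± 0.25 in radiation+fTyS lungs, 7.46 ± 0.81 in radiation lungs and 7.98 ± 0.26 in control lungs. Limma called none of the 7 in radiation+fTyS versus radiation, all of them with an unadjusted p below 0.05 (median log2 fold change 1.19), and their part in the Fcgr2b values was not tested. Across the 25 arrays the B cell marker mean and Fcgr2b had a correlation of -0.241, and -0.496 within groups.

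Across the 25 arrays the neutrophil marker mean had a Pearson correlation with each receptor gene from 0.429 for Fcgr2b to 0.856 for Cd300lf. After the group means were taken out, the same correlations ran from -0.003 for Sirpa to 0.414 for Cd300a, lower than over all arrays for each of the 10. For the mean of the monocyte and interstitial macrophage markers they ran from 0.554 for Cd300lf to 0.798 for Fcer1g over all arrays, and from 0.14 for Sirpa to 0.639 for Fcgr2b within groups. Lists of other tissue cells also varied with the receptors within groups. There the correlations with the lung epithelium and endothelium mean ran from 0.146 for Fcgr1 to 0.751 for Sirpa. Those with the skeletal muscle mean ran from -0.617 for Sirpa to -0.129 for Fcgr3. These are descriptions without a test, and the points of a group share their treatment.

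**Figure D4:**
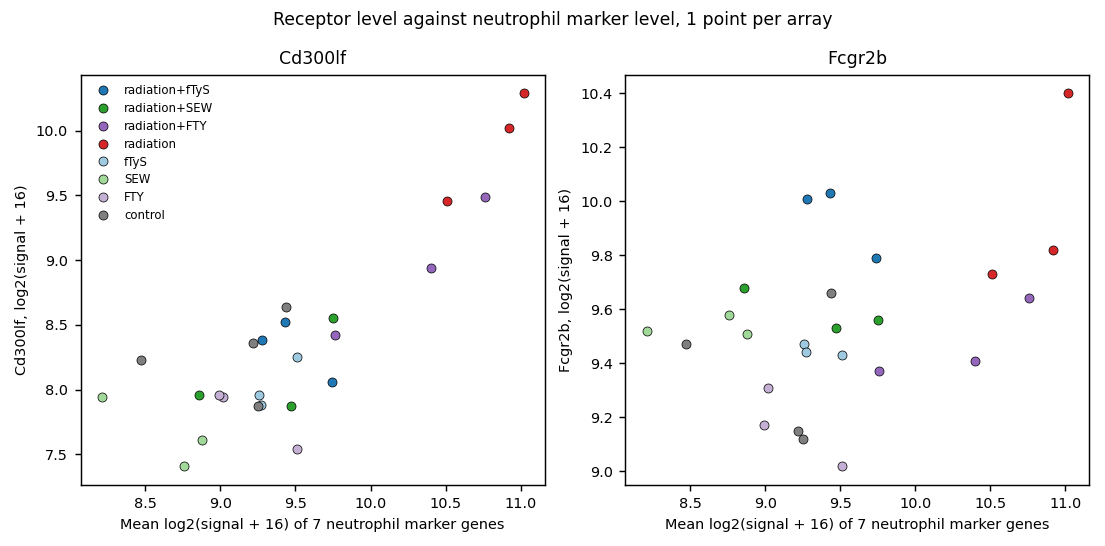
Level of Cd300lf (left) and Fcgr2b (right) as log2(signal + 16), against the mean log2 level of 7 neutrophil marker genes in the same array (1 point per array, coloured by group). Cd300lf rises with the marker mean over all 25 arrays (r = 0.856), less so within groups (r = 0.361). The radiation+fTyS arrays have high Fcgr2b at marker means below those of radiation (r = 0.429 over all arrays and 0.043 within groups).

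The 10 genes also rose and fell together from array to array. Their pairwise correlations ran from 0.593 for Fcgr2b with Fcgr4 to 0.964 for Pirb with Sirpb1a, an inhibitory and an activating receptor of separate families. Within groups the pairs ran from 0.153 for Sirpa with Fcgr1 to 0.89 for Fcgr2b with Fcgr3. Of all other genes tested, the most alike was Tyrobp for Fcer1g (r = 0.988 over 25 arrays), followed by Ms4a6c (0.965). Pirb was nearest to Alox5ap (0.973), which encodes the activating protein of leukotriene synthesis, and to Tyrobp (0.959), and Sirpb1a to Alox5ap (0.962) and Rnf149 (0.959). Sirpa was nearest to Clec7a (0.955) and Fpr2 (0.947), Cd300a to Clec4a3 (0.963) and Tyrobp (0.951), and Cd300lf to Mcemp1 (0.959) and Stfa2l1 (0.951). The Fc receptors had other neighbours: Fcgr1 was nearest to Cd68 (0.924) and Ctsa (0.884), Fcgr3 to Ms4a6d (0.958) and Ccl6 (0.936), and Fcgr4 to Slc15a3 (0.908) and Mpeg1 (0.89). Fcgr2b had the loosest neighbours of the 10, Ctss (0.846) and Ms4a6d (0.826).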

How the data were processed

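Lung RNA (6 µg of total RNA per array, per the labels' protocols) was read on 25 Affymetrix arrays of the mouse genome. The deposited values were signal intensities, 1 per probe set and array on a linear scale (0.53 to 19112.08), made by the authors with GCOS, per the submitters' processing notes; its version, summary method and scaling target are not given in the sources used here. Probe sets were named from GEO's platform annotation: of 45101, 64 were controls, 34945 had a single symbol, 932 several and 9160 none.

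Values were taken as log2(signal + 16), which understates fold changes of low genes. The brightest single-symbol probe set stood for each of 18193 genes, and the 12937 genes with a mean above the 40th percentile (log2 6.49) were tested. The 8 group means were fitted together with limma 3.58.1 in R 4.3.3 (17 residual degrees of freedom, empirical Bayes with trend), giving 22 comparisons with Benjamini-Hochberg adjustment within each. A gene was called at an adjusted p of at most 0.05, and intervals are 95% intervals of this fit. The script was tested on simulated data. The small number of arrays limits the precision: the median half-width of the interval was 0.40 for a group of 3 against control and 0.59 for an interaction.

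All 10 receptor genes are named, called or not. Of the 2 related gene lists and the cell marker lists, called genes are named, at most 6 per list and comparison, and for each receptor gene the 2 most correlated genes. The receptor genes and lists were chosen with earlier results of these data known. Alternatives were quantile normalization, median centring, pseudocounts of 1 and 64, no filter, averaged probe sets, array weights, a block for the replicate number, separate fits of the arrays in each comparison, and fits without 1 array at a time. The labels do not say that a replicate number marks a shared litter or day. Same-numbered arrays deviated together, with all 3 correlations over 0.1, in 6 comparisons (among them radiation versus control and radiation+fTyS versus radiation), and 7 of 25 arrays correlated best with their own number. In some other comparisons all 3 correlations were negative, such as SEW versus control (-0.409, -0.803 and -0.224) and fTyS versus SEW (-0.361, -0.813 and -0.472). The labels give no batch or scan date. Each array is 1 mouse per the series' design text, and no arrays held identical values (correlations between arrays 0.965 to 0.994).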

Additional observations from a re-analysis of the deposited data

Results flagged for a closer look

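The response to radiation differed with and without a compound, by the interaction test of the limma fit, for 4 receptor genes. For Pirb the interaction was -1.49 with fTyS (adjusted p = 0.0265) and -1.47 with SEW (adjusted p = 0.00484), on the log2 scale. With SEW it was -1.66 for Sirpb1a (adjusted p = 0.0243), -1.17 for Cd300lf (adjusted p = 0.0338) and -0.99 for Fcgr3 (adjusted p = 0.0209). In each case radiation with the compound, set against the compound alone, gave a smaller increase than radiation set against control. Pirb read 289.7, 261 and 251 in radiation+fTyS lungs and 242, 196 and 262 in fTyS lungs, and Fcgr3 read 966, 1026 and 919 in radiation+SEW lungs and 892, 891 and 858 in SEW lungs. All 5 values rest on the same radiation and control arrays. In the control group, the only one with more than 3 arrays, no receptor gene had an array that stood apart by Dixon's test. With 4 arrays and each gene taken alone, this test can find only very large gaps. It does not address control replicate 4, which was highest for all receptor genes.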

How the results depend on the processing

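Of 7480 values of single receptor genes under other settings, 7230 kept their side of the threshold, 147 lost a call and 103 gained one. None changed sign while called, and sign changes of values that were not called were not counted. Quantile normalization and pseudocounts of 1 and 64 moved no count of called receptor genes by over 1.5 times. The counts under other settings, in this section and in the results above, stand without the share of all genes called under the same setting. They therefore do not show whether genes at large moved alike.

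Array weights raised the count to 3 in SEW versus control (1 as reported), 7 in radiation+fTyS versus radiation (3), 4 in radiation+SEW versus SEW (1) and 5 in fTyS versus SEW (0). With these weights it was also 2 in radiation+fTyS versus fTyS, 4 in radiation+fTyS versus control, and 1 each in radiation+SEW versus control, radiation+fTyS versus radiation+SEW and radiation+fTyS versus radiation+FTY (0 in each as reported). The interactions then gave 8 with fTyS (1), 7 with SEW (4) and 2 with FTY (0).

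Fits on only the arrays compared, which have fewer samples behind the spread, gave 1 in radiation versus control (9), 0 in radiation+fTyS versus radiation (3), 1 in radiation+SEW versus radiation (6) and 0 in radiation+FTY versus radiation (3). The same fits gave 4 in radiation+SEW versus SEW (1), 3 in radiation+FTY versus FTY (5), 0 in radiation+FTY versus control (3) and 0 for the interaction with fTyS (1). Averaged probe sets gave 0 in SEW versus control, 0 in radiation+SEW versus SEW and 3 in radiation+FTY versus FTY, and median centring gave 0 in the first pair of these. Without the filter, 1 was called in radiation+FTY versus radiation (3). With the replicate number as a block, 0 were called in SEW versus control (1), 2 in radiation+fTyS versus control (0) and 2 for the interaction with fTyS (1), and in the other comparisons in which the same-numbered arrays deviated together no call of the 10 changed. The cause of these shifts was not tested.

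Leaving out single arrays gave counts of 1 to 5 in radiation+fTyS versus radiation, 2 to 7 in radiation+SEW versus radiation, 0 to 6 in radiation+FTY versus radiation, 0 to 1 in SEW versus control and 0 to 2 in radiation+SEW versus SEW. They were 0 to 2 in radiation+fTyS versus control, 0 to 6 in radiation+FTY versus control, 0 to 1 in radiation+fTyS versus radiation+FTY, and 0 to 4 and 1 to 8 for the interactions with fTyS and SEW. In radiation versus control they stayed between 6 and 10.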
